A study of Bubalus bubalis with 36 samples.

Results

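The let-7 family of microRNAs (miRNAs) was described in fat of the water buffalo, Bubalus bubalis. Its members were the rows of the miRNA count table whose bovine name began with let-7, together with miR-98, a let-7 family member in all but name. This gave 10 rows (let-7a-5p, let-7a-3p, let-7b, let-7c, let-7d, let-7e, let-7f, let-7g, let-7i and miR-98) of 1682 rows in all, of which 695 carried bovine miRNA names. The table covered 36 small RNA libraries from 6 buffaloes, with 6 adipose depots from each animal. Slaughter was at 20 months of age, after weaning at 3 months and a fattening period that began at 15 months, and the labels name no further treatment. The subcutaneous depots were back (BSAT), sternal (SSAT) and inguinal (IAT) fat, and the visceral ones were perirenal (PRAT), pericardial (PCAT) and omental (OAT) fat. Each depot had 6 libraries, 1 per animal, so a depot and its animal number name a library here (SSAT4 is the sternal library of animal 4).

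A mature miRNA guides the silencing complex to messenger RNAs through a short seed near its 5′ end, and the members of a miRNA family share that seed. The let-7 members are known to accumulate as cells leave the proliferating, undifferentiated state, whereas the RNA-binding protein LIN28 blocks the maturation of their precursors. Known targets of let-7 include the growth regulators HMGA2, MYC and RAS and components of insulin signalling, and in cultured preadipocytes let-7 rises during differentiation while HMGA2 falls. Several members differ from each other at only a few bases outside the seed, so reads can be divided between near-identical members during counting, and the values of single members are uncertain to that extent.

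Library totals ran from 9484589 to 13920998 counted reads (median 12525362), and 867 to 1052 rows were detected per library. All 10 members passed the filter on low counts and were among the 667 rows tested. Of the 36 libraries, 8 carry the letter A in their library name (1 subcutaneous, 7 visceral) and 28 the letter B. The labels do not explain the letters. Markers of other cell types were present at unequal levels. The summed level of 3 erythroid miRNAs (miR-451, miR-144, miR-486) ran from 8231 to 185650 CPM (counts relative to a fixed library size), and all 9 rows of a list of miRNAs known from adipocytes and their tissue of origin were detected, at a summed 74413 to 181685 CPM. The tissue is a mixture of cells, so a lower level of a miRNA can mean fewer cells of a type or less RNA per cell, which cannot be told apart.

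Together the family made up a large part of the counted miRNA reads in every depot, and sternal fat ranked first. The share of the library was 20.3% ± 3.24 (SD, n = 36), from 15.1% in OAT5 to 29.4% in SSAT4. In sternal fat the lowest, median and highest library held 19.3%, 22.3% and 29.4%. In back fat, the depot with the lowest mean, these values were 15.6%, 18.1% and 21.7%. The mean shares by depot were 23.1% ± 3.91 in sternal, 21.4% ± 3.36 in pericardial, 20.3% ± 3.18 in inguinal, 19.5% ± 3.16 in omental, 19.0% ± 1.55 in perirenal and 18.3% ± 2.30 in back fat (SD, n = 6 each). No depot differed from its neighbour in this order by more than its spread over animals. The sternal share was above the mean of the same animal's other 5 depots in 5 of 6 animals.

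**Figure D1:**
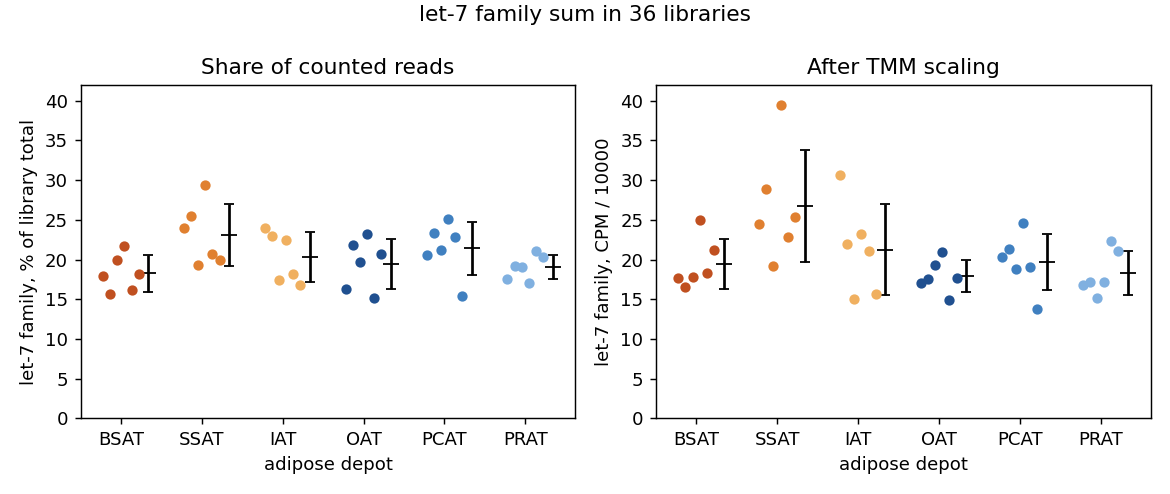
Summed let-7 family in each of 36 libraries by depot (6 points per depot, 1 per animal; bar and whiskers are mean ± SD), as percent of the library total at left and as CPM on library sizes scaled by trimmed mean of M values (TMM) at right. Sternal fat (SSAT) has the highest mean on both scales, at 23.1% of the library, and its libraries overlap with those of every other depot.

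Whether subcutaneous fat held more let-7 than visceral fat depended on the scale. As a share of all counted reads, the family was 20.6% ± 3.64 in the 18 subcutaneous and 20.0% ± 2.85 in the 18 visceral libraries. The difference was 0.592 percentage points (SD over animals 2.16, n = 6), from −0.0584 to 0.970 points when single animals were left out, and subcutaneous fat was the higher in 2 of 6 animals. After TMM scaling, which adjusts library totals so that most miRNAs centre on no difference, the difference was 3.85 points and subcutaneous fat was the higher in 5 of 6 animals. The mean TMM factor was 0.938 ± 0.117 for subcutaneous fat and 1.08 ± 0.0968 for visceral fat (SD over 18 libraries each), which on average raises the subcutaneous values relative to the visceral ones. The differences below are on the TMM scale unless stated, and they are therefore differences relative to the other miRNAs of the same library.

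Of the members, let-7c, let-7i and let-7f carried most of the family. Their mean levels were 58292 ± 23298, 48258 ± 17356 and 45149 ± 12108 CPM (SD, n = 36). In mammals let-7c is encoded beside miR-99a and miR-125b, let-7i stands alone, and let-7f comes from more than 1 precursor, including a cluster with let-7a and let-7d and a neighbour of miR-98. Among all miRNAs of a library, let-7c ranked between 1 and 10, let-7i between 3 and 9 and let-7f between 2 and 13. These counts cover mature miRNAs of nearly equal length, but capture during library preparation differs between sequences, so the order of members is an order of counts. The leading member of the family was let-7c in 19 libraries, let-7i in 10 and let-7f in 7. let-7c led in 6 of 6 back and 1 of 6 perirenal libraries, and let-7i led in 4 of 6 sternal libraries. In omental and in perirenal fat let-7f led in 3 of 6 libraries each.

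The next members were let-7g at 24028 ± 5621 CPM and let-7a-5p at 12805 ± 4587 CPM. let-7d had 6547 ± 1359 CPM and let-7b 5235 ± 1900 CPM. The lowest of the seed-sharing members were let-7e at 2746 ± 1122 CPM, which in mammals lies beside miR-99b and miR-125a, and miR-98 at 2344 ± 653 CPM. The passenger arm let-7a-3p, which comes from the other strand of a let-7a hairpin and has a different seed, was at 11.3 ± 2.83 CPM, with 69 to 231 counts per library. Its counting error alone was 12.0% at the lowest count, against 1.79% or less for every other member.

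**Figure D2:**
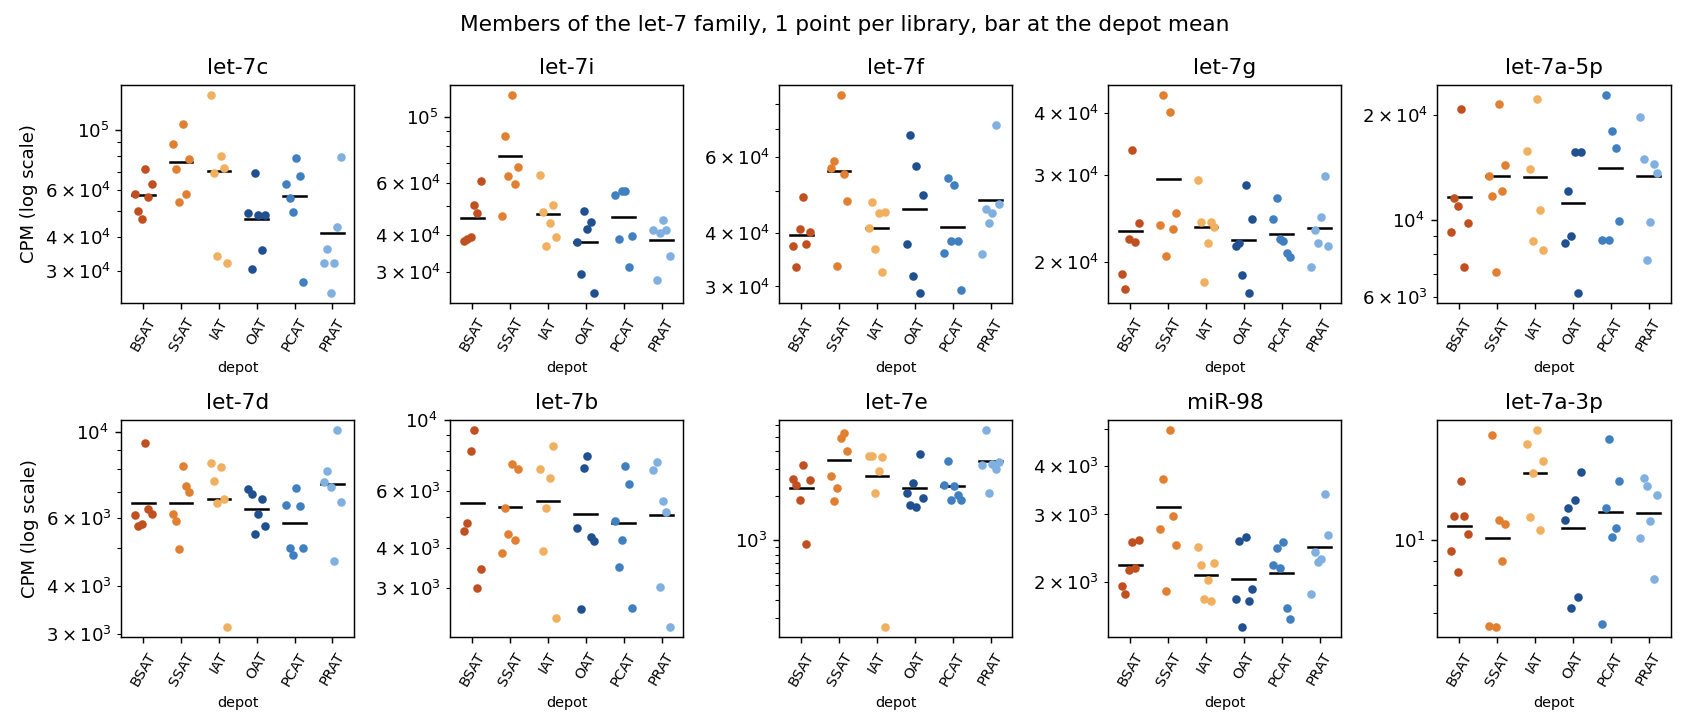
Level of each let-7 member in CPM (log axis, 1 panel per member) by depot, with 1 point per library (6 per depot) and a bar at the depot mean. The sternal libraries of let-7i lie between 46490 and 119042 CPM, and let-7e reaches 260 CPM in 1 inguinal library.

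let-7i was highest in sternal fat. Its lowest, median and highest sternal libraries were at 46490, 65549 and 119042 CPM. In the 30 libraries of the other depots these values were 25581, 41659 and 63776 CPM. Most sternal libraries thus lay near or above the top of the other depots, and the ranges overlapped. Within animals, sternal fat had the highest let-7i of the 6 depots in 5 of 6, and in animal 1 the inguinal library led (63776 against 46490 CPM). The mean was 73851 ± 25700 CPM in sternal fat (SD, n = 6) and 43139 ± 9331 CPM elsewhere (n = 30), a log2 difference of 0.78 ± 0.15 (SE; edgeR quasi-likelihood adjusted p = 0.00110).

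miR-98 was the other member called in sternal fat. Its lowest, median and highest sternal libraries were at 1899, 2857 and 4982 CPM, against 1527, 2193 and 3387 CPM in the other 30 libraries. SSAT4 and SSAT2 were the highest miR-98 libraries of all, and SSAT3 lay within the lower part of the other depots. The log2 difference was 0.52 ± 0.15 (SE; edgeR adjusted p = 0.0279), and sternal fat was above the mean of the same animal's other depots in 5 of 6 animals. In this comparison 2 of 10 members were called, both higher, where 9.3% of all tested rows were called and 5.55% were called higher. The members' median log2 difference was 0.37, and that of all 667 rows was −0.11.

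The sternal result of let-7i remained called when any 1 of the 36 libraries was left out, with log2 differences of 0.59 to 0.95. The lowest value came without SSAT4 (edgeR adjusted p = 0.0304). It was also called under library totals alone (0.54, edgeR adjusted p = 0.00538) and within the letter B libraries alone (0.80, edgeR adjusted p = 0.0104). miR-98 rested on SSAT4, without which its log2 difference was 0.33 (edgeR adjusted p = 0.231), and under library totals alone it was 0.27 (edgeR adjusted p = 0.232). The filter on low counts was applied again in the fits without a single library, so 683 to 690 rows were tested in those. On the 667 rows of the full set, let-7i remained called without each library (0.67 to 0.94), and miR-98 was no longer called without SSAT4 (0.42, edgeR adjusted p = 0.103) or SSAT2 (0.47, edgeR adjusted p = 0.0675).

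Further members were higher in sternal fat without passing the threshold. let-7g had a log2 difference of 0.36 ± 0.14 (edgeR adjusted p = 0.113), let-7f of 0.38 ± 0.16 (edgeR adjusted p = 0.140) and let-7c of 0.50 ± 0.22 (edgeR adjusted p = 0.155). Calls of let-7g and let-7f depended on the setting. With RLE factors in place of TMM both were called (edgeR adjusted p = 0.0285 and 0.0406). So they were with a filter of 10 CPM (edgeR adjusted p = 0.0159 and 0.0280) and with DESeq2 (adjusted p = 0.0125 and 0.0273). Under library totals alone neither was (edgeR adjusted p = 0.602 and 0.647). let-7g was called in 0 of 6 fits that left out an animal, and on the same 667 rows it was called without 2 of the 36 libraries, SSAT5 and SSAT6. With rows filtered again it was called in 30 of 36 such fits. The median log2 difference of all rows, −0.11 with all libraries, lay between −0.11 and −0.01 in those refits (middle value −0.025). On the same rows it lay between −0.12 and −0.02 (middle value −0.106). let-7a-5p (0.08), let-7d (0.01) and let-7b (0.04) had values near 0, let-7e 0.45 with an SE of 0.28, and let-7a-3p −0.19 with an SE of 0.20. Sternal libraries also had the lowest erythroid signal, with a summed median of 17042 CPM (8231 to 35036), and 1 of the 3 erythroid miRNAs was called in sternal fat. Their part in the let-7 result was not tested.

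**Figure D3:**
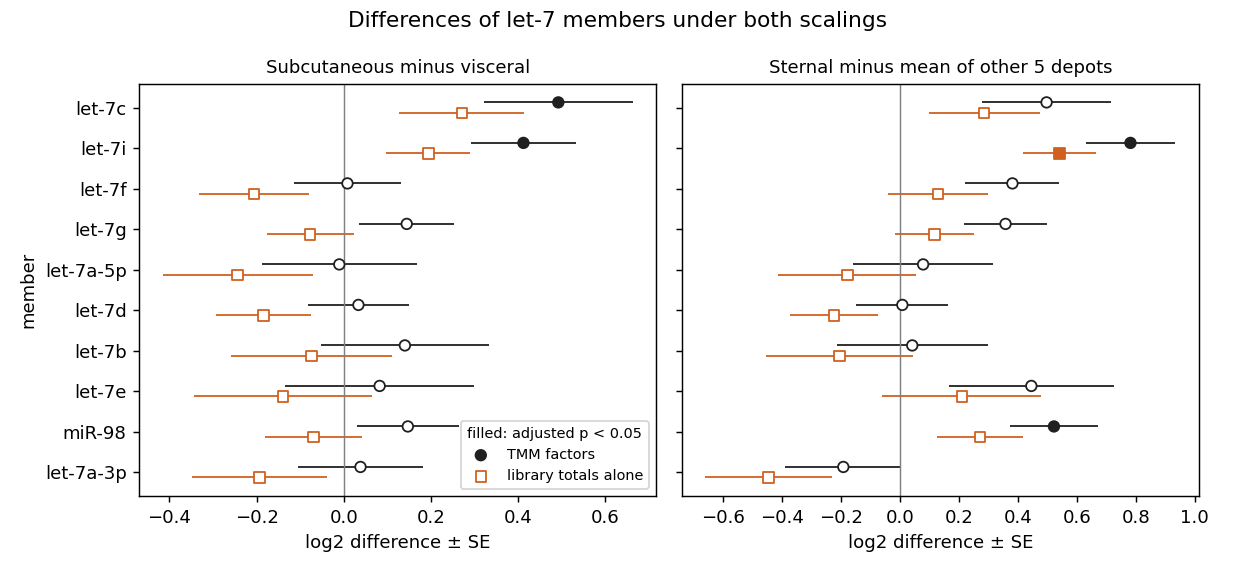
Log2 difference ± SE of each let-7 member between subcutaneous and visceral fat (left) and between sternal fat and the mean of the other 5 depots (right), with TMM factors (circles) and with library totals alone (squares); filled symbols have an adjusted p below 0.05. let-7i in sternal fat is called under both scalings (0.78 and 0.54), and every member shifts to lower values under library totals.

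The depots ordered by mean let-7i were sternal, inguinal (47066 CPM), pericardial (46243 CPM), back (45871 CPM), perirenal (38576 CPM) and omental fat (37941 CPM). In 15 pairs of depots with 10 members each, 3 differences were called (2.83% of all rows over these pairs), and all were let-7i in sternal fat against a visceral depot. Against perirenal fat the log2 difference was 0.94 ± 0.21 (SE; edgeR adjusted p = 0.00721), and the 6 sternal libraries lay above all 6 perirenal ones. In that pair 7.2% of tested rows were called and 3.45% had libraries that did not overlap. Against omental fat it was 0.96 ± 0.21 (edgeR adjusted p = 0.00692; 4.8% of rows called). Against pericardial fat it was 0.68 ± 0.21 (edgeR adjusted p = 0.0291; 12.1% of rows called).

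The neighbours of sternal fat within the subcutaneous class were not called for let-7i. The log2 difference to inguinal fat was 0.65 (edgeR adjusted p = 0.142; 0.6% of rows called in that pair). Back fat was lower than sternal fat by a log2 difference of −0.69 (edgeR adjusted p = 0.124; 0.3% of rows called), and it was the lower in 6 of 6 animals. No pair among the 5 depots other than sternal was called for let-7i (1.74% of rows called over these 10 pairs). Over all 6 depots, let-7i was the 1 member called (edgeR adjusted p = 0.00695; 13.9% of rows called). Without SSAT4 and with rows filtered again, let-7i was no longer called (edgeR adjusted p = 0.0653). Without SSAT4 on the same 667 rows it was still called (edgeR adjusted p = 0.0376). No member was called over the 3 subcutaneous depots alone (0.6% of rows called; 3 members had an unadjusted p under 0.05) or over the 3 visceral depots alone (1.95% of rows called; 0 members had an unadjusted p under 0.05).

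Between the classes, 2 of 10 members were called, let-7c and let-7i, both higher in subcutaneous fat. Across all tested rows 16.5% were called and 7.2% were called higher. The log2 difference of let-7c was 0.49 ± 0.17 (SE; edgeR adjusted p = 0.0436; 0.46 and 0.0641 with the animal as a block), and that of let-7i was 0.41 ± 0.12 (edgeR adjusted p = 0.0173). Of the 8 letter A libraries 7 are visceral, and with the letter as a covariate neither member was called (let-7i 0.36, edgeR adjusted p = 0.0712, and let-7c 0.48, edgeR adjusted p = 0.0901). With counts summed per animal and class and compared in pairs, neither was called either (let-7i 0.44, edgeR adjusted p = 0.144, and let-7c 0.47, edgeR adjusted p = 0.105). Neither call stood when the sternal depot was left out of the comparison. let-7i then had a log2 difference of 0.17 (edgeR adjusted p = 0.483) and let-7c of 0.38 (edgeR adjusted p = 0.258). In that comparison 0 of 10 members were called, and calls over all rows also fell, from 110 of 667 to 30 of 657. Under library totals alone the log2 differences were 0.19 for let-7i and 0.27 for let-7c, again with 0 members called, where 138 of 667 rows were. Without SSAT4 let-7c was no longer called (edgeR adjusted p = 0.0884), and the removal of 16 other single libraries had the same effect on its call (21 libraries in all on the same 667 rows). The other 8 members had log2 differences between −0.01 (let-7a-5p) and 0.15 (miR-98), with an SE of 0.22 or less. Visceral fat also had more of the epithelial markers (summed median 128 against 5.97 CPM, 5 of 5 rows called) and of the leukocyte markers (8280 against 4466 CPM, 3 of 6 rows called). Their part in the let-7 differences was not tested.

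Perirenal fat had the lowest mean let-7c (41470 CPM), and omental fat was close to it (46914 CPM). Omental minus perirenal fat gave a log2 difference of 0.18 (edgeR adjusted p = 0.958), higher in 3 animals and lower in 3. The lowest, median and highest perirenal libraries of let-7c were at 24934, 34229 and 79706 CPM, against 27232, 58013 and 135248 CPM in the other 30 libraries. All perirenal libraries except PRAT6 lay at or below 43624 CPM. Against the mean of the other 5 depots the log2 difference was −0.55 ± 0.24 (SE; edgeR adjusted p = 0.249), and let-7c was lower in 5 of 6 animals. In perirenal fat 0 members were called, where 3.15% of rows were, and 2 members (let-7c and let-7i) had an unadjusted p under 0.05. The fit without PRAT6 is named here because of that library's let-7c value, and removing the highest perirenal library by itself lowers the difference. That fit gave a difference of −0.80 for let-7c (edgeR adjusted p = 0.0439), which is a description and no support for a perirenal difference. PRAT6 also had the highest miR-122 of all libraries, a liver miRNA, at 283 CPM. Its part in the result was not tested.

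let-7i was lower in perirenal fat in 6 of 6 animals (log2 difference −0.34 ± 0.17, edgeR adjusted p = 0.343), and let-7e was higher in 6 of 6 (0.41 ± 0.28, edgeR adjusted p = 0.507). Both differences missed the threshold. No member was called for back (2.25% of rows called), inguinal (0.3%), omental (1.5%) or pericardial fat (9.15%) against the mean of the other depots. Among the 10 members, 0 had an unadjusted p under 0.05 for back, inguinal or pericardial fat and 1 did for omental fat.

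The makeup of the family, each member as a percent of all let-7 counts in its library, does not depend on the scaling factor. let-7c made up 29.9% ± 5.48 of the family in subcutaneous and 25.6% ± 6.77 in visceral fat (SD, n = 18 each), and was higher in subcutaneous fat in 4 of 6 animals. let-7f made up 20.6% ± 3.47 and 24.1% ± 5.45, and was lower in subcutaneous fat in 5 of 6 animals. let-7g took 11.4% ± 1.72 and 12.3% ± 1.66, and its share was lower in subcutaneous fat in 6 of 6. Its level in CPM was higher there in 5 of 6 animals (log2 difference 0.14, edgeR adjusted p = 0.394). The groups overlapped for each of these members.

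**Figure D4:**
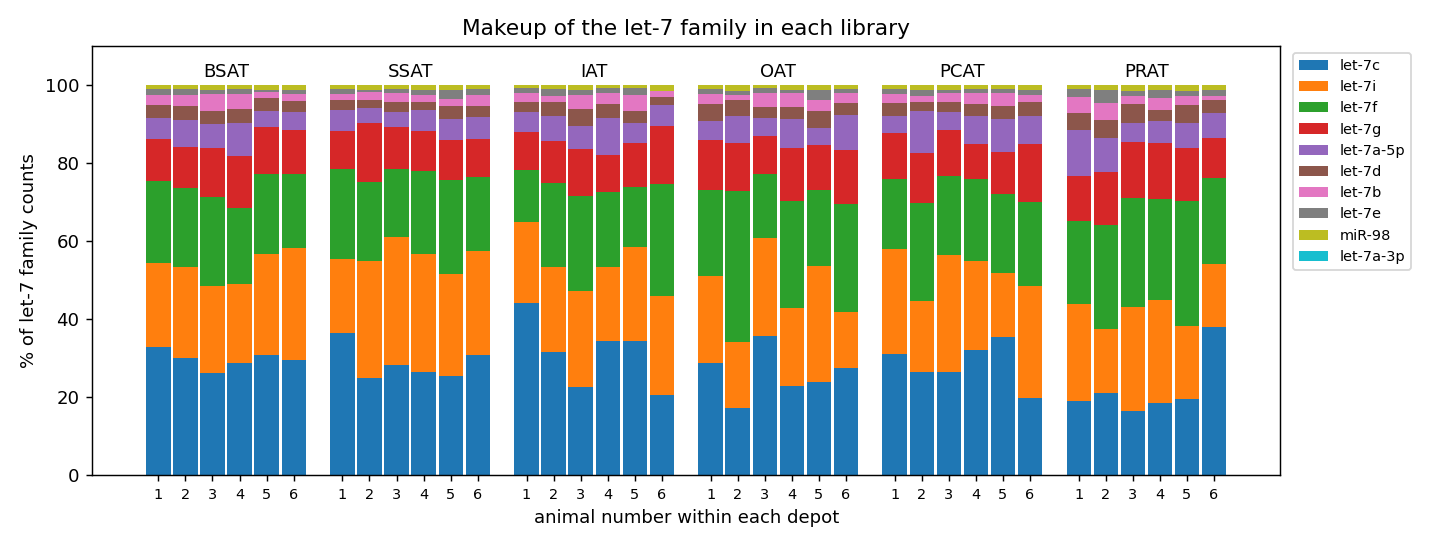
Makeup of the let-7 family in each of 36 libraries (bars, grouped by depot, numbered by animal), as percent of all let-7 counts in the library. let-7c, let-7i and let-7f fill most of every bar, let-7c averages 22.1% in perirenal fat, and let-7i averages 27.5% in sternal fat.

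In sternal fat let-7i made up 27.5% ± 4.84 of the family (SD, n = 6), and it was above the mean of the same animal's other depots in 5 of 6 animals. let-7a-5p, let-7d and let-7a-3p took a smaller share there than in the other depots of the same animal in 6 of 6 animals. In perirenal fat let-7c averaged 22.1% ± 7.87 and let-7f 25.9% ± 3.94. The ratio of let-7c to let-7f counts averaged 0.888 ± 0.419 there and 1.74 ± 0.939 in inguinal fat, and single libraries ran from 0.451 in OAT2 to 3.28 in IAT1. miR-98 took a larger share in perirenal fat in 6 of 6 animals, at 1.35% ± 0.153 of the family. Its level in CPM was higher there in 3 animals and lower in 3 (log2 difference 0.11, edgeR adjusted p = 0.790).

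The members differed in what their levels varied with. The depot accounted for 48.9% of the variance of log2 CPM for let-7i, 33.8% for miR-98 and 29.6% for let-7c, against a median of 18.6% over all tested rows. For let-7b it accounted for 2.00% and for let-7a-5p for 5.47%. These members varied more between animals, which accounted for 36.0% of the variance of let-7b and 40.5% of that of let-7a-5p, against a median of 20.0% over all tested rows. In spread, let-7g was the steadiest member, with an SD of 0.29 on the log2 scale, and let-7e the most variable, with 0.77. The median SD of the 79 rows with at least 1000 CPM was 0.75.

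let-7a-5p averaged 17990 ± 4680 CPM in animal 4 and 8682 ± 1338 CPM in animal 3 (SD over 6 depots each). The 6 animals did not differ beyond the threshold (edgeR adjusted p = 0.0597; 11.7% of rows called), and 0 members were called. let-7a-5p was also higher in the 8 letter A libraries, at 16925 ± 4064 CPM, than in the 28 letter B libraries, at 11627 ± 4065 CPM. With the depot in the model, the log2 difference between the letters was 0.70 ± 0.20 (edgeR adjusted p = 0.0547), and 0 members were called where 1.05% of rows were. No fit held both letter and animal, so the letter and animal differences were not separated. All libraries of animal 3 carry letter B. The letter A libraries of animal 4 were at 20782 (BSAT4), 15615 (OAT4) and 9869 CPM (PRAT4). Its letter B libraries were at 21502 (SSAT4), 22211 (IAT4) and 17963 CPM (PCAT4). let-7b had 6383 ± 1921 CPM in letter A and 4907 ± 1795 CPM in letter B libraries (log2 difference 0.57 ± 0.24, edgeR adjusted p = 0.373).

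let-7e ranged 21.4-fold, from 260 CPM in IAT6 to 5566 CPM in PRAT2. The other inguinal libraries lay at 2081 to 3698 CPM, and the next lowest library of all was BSAT5 at 949 CPM. IAT6 had 3122 let-7e counts. The miRNAs known to be encoded beside let-7e were also below their inguinal medians in IAT6. There miR-99b was at 2075 CPM (inguinal median 4056, all libraries 1154 to 12405). miR-125a was at 3029 CPM (inguinal median 5920, all libraries 2060 to 14903). Both were lower still in IAT2, at 1461 and 2678 CPM, where let-7e was at 3698 CPM. let-7d was also lowest in IAT6, at 3116 CPM. Of the inguinal libraries, IAT6 had the highest summed leukocyte (25923 CPM, inguinal median 4466) and erythroid markers (73366 CPM, median 22243). It was also the highest of them in epithelial markers (77.6 CPM, median 4.45) and miR-122 (11.6 CPM, median 0.454). Their part in the low let-7e of IAT6 was not tested.

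Across libraries, the closest pair of members was let-7f and miR-98. Over 36 libraries, their log2 CPM had a Pearson r of 0.87 and a Spearman rho of 0.86. The r was 0.81 without the 2 libraries farthest from the let-7f median and 0.88 on deviations from depot means. let-7g and miR-98 followed with an r of 0.81 (0.67 without the 2 farthest libraries) and let-7f and let-7g with 0.70 (0.60). In mammals 1 let-7f precursor lies beside miR-98 on the X chromosome, and another in a cluster with let-7a and let-7d. The r of let-7f was 0.57 (0.52) with let-7a-5p and 0.32 (0.14) with let-7d. Any part of shared location in these values was not tested. Among the 9 members other than let-7a-3p, the 36 pairs had r values from 0.04 to 0.87 with a median of 0.36. In the 9 pairs with let-7a-3p, r ran from −0.20 to 0.29. The points share library, scaling factor and animal, and these values are descriptions with no test.

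Among 6 tested rows of the miRNAs encoded beside let-7 members in mammals or their paralogs (miR-99a-5p, miR-99a-3p, miR-99b, miR-100, miR-125a and miR-125b), 1 was called between the classes, where 16.5% of all rows were. It was miR-100, at a log2 difference of 0.44 ± 0.13 (edgeR adjusted p = 0.0189). None was called in sternal or in perirenal fat, where 9.3% and 3.15% of all rows were. The r with let-7c over 36 libraries was 0.54 for miR-99a-5p and 0.41 for miR-125b, which are encoded beside it. For miR-100, which is not, the r with let-7c was 0.72, and its r with let-7a-5p was 0.16. For let-7e it was 0.35 with miR-99b and 0.39 with miR-125a.

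Ranked by Spearman rho with the family sum over 36 libraries, among 279 rows abundant enough to rank, the closest were a row with no bovine name (NC_059165.1_25340, rho 0.64), miR-23a (0.63) and miR-100 (0.62). miR-23a averaged 13648 CPM in sternal fat and 2490 CPM in omental fat, the highest and lowest depots for it. At the other end stood miR-451 (−0.60), miR-1307 (−0.59) and miR-486 (−0.57), of which miR-451 and miR-486 are red blood cell miRNAs. The summed erythroid level and the family sum had a Pearson r of −0.62 and a Spearman rho of −0.60. The r was −0.52 without the 2 libraries farthest from the erythroid median and −0.54 on deviations from depot means. Both sums are parts of 1 library total, so an abundant miRNA lowers the share of all others, and the correlation is given with no test.

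**Figure D5:**
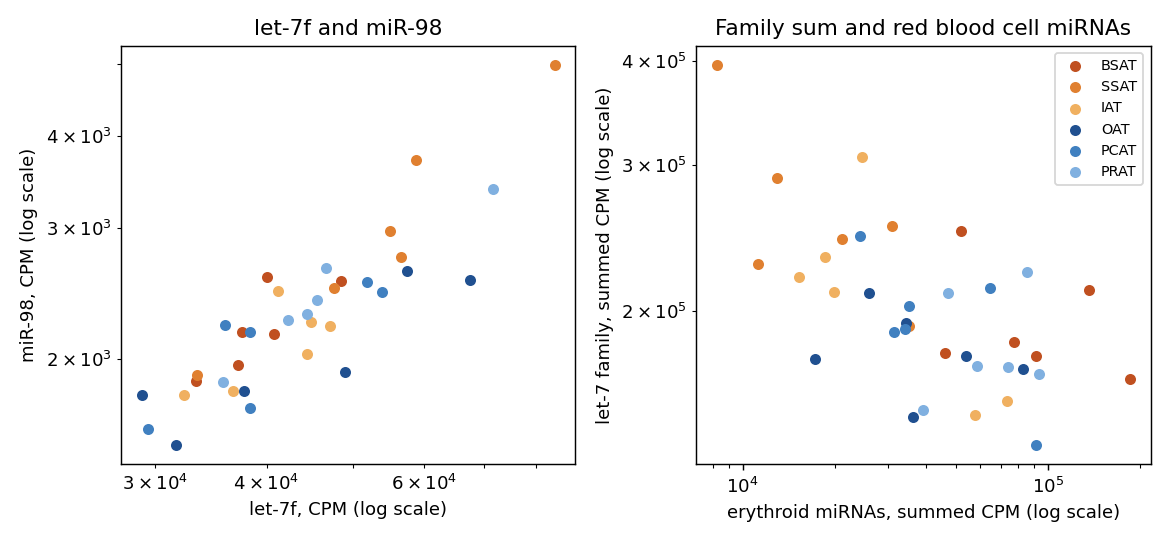
Left, let-7f against miR-98 in CPM, and right, summed erythroid miRNAs (miR-451, miR-144, miR-486) against the summed let-7 family in CPM, with 1 point per library (n = 36), coloured by depot, all axes logarithmic. let-7f and miR-98 rise together (r 0.87), and the 3 lowest erythroid sums are those of sternal libraries.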

How the data were processed

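Small RNA libraries of 6 depots from 6 buffaloes were compared (n = 6 per depot). The deposited table gave raw counts per miRNA row, and the authors' second table gave RPM values, which equalled the count scaled by the library total within 4.79e-06. Per the labels' protocols total RNA was extracted with a lipid tissue kit, and the submitters' processing notes list DESeq2 1.24.0 with no role. The aligner, the caller and the build were each not given in the sources used here. The blank row held 0 counts and was left out.

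Counts were tested with edgeR 4.0.16 (R 4.3.3; quasi-likelihood, TMM factors, filterByExpr with a minimum count of 10, 1 coefficient per depot) on all 667 rows that passed. Benjamini-Hochberg adjustment ran over all of them, and a call is an adjusted p under 0.05. SE is the log2 difference divided by the square root of F. CPM values used TMM-scaled library sizes. The labels pair the depots of 1 animal (mean correlation of deviations 0.198 within and −0.0392 between animals). The main fit had no term for the animal, so its SE and p values treat libraries of 1 animal as independent. The animal as a block was 1 of the alternatives. The share of variance between depots and animals came from sums of squares of log2 CPM. Every member is named. The alternatives included limma 3.58.1 on log2(RPM + 1) and DESeq2 1.42.0. Members, gene lists and tests were chosen with earlier results of these data known.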

Additional observations from a re-analysis of the deposited data

Results flagged for a closer look

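In 66 groups of 6 libraries (10 members and the family sum in 6 depots), 8 member values, in 7 libraries, stood apart from their group by a gap that took up most of the group's range (above Dixon's critical value at the 95% level). That level holds for independent, normally distributed values. The groups share libraries and the family sum contains the members, so the number of flagged values cannot be set against chance. let-7e had 3 of the flagged values. It was at 5566 CPM in PRAT2 (other perirenal libraries 2099 to 3356), at 3785 CPM in OAT5 (other omental libraries 1676 to 2423) and at 3447 CPM in PCAT2 (other pericardial libraries 1869 to 2368). Animal 4's back library was high for let-7a-5p, at 20782 CPM (others 7342 to 11559), and for let-7d, at 9356 CPM (others 5692 to 6320). let-7d was low in IAT6, at 3116 CPM (others 6531 to 8285). let-7c was high in PRAT6, at 79706 CPM (others 24934 to 43624), and let-7f in PRAT5, at 71552 CPM (others 35738 to 46639).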

How the results depend on the processing

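let-7i in sternal fat was called under each of 9 other settings and without each of the 6 animals (log2 differences 0.52 to 0.87 and 0.71 to 0.99). miR-98 there was called under 5 of 9 settings and without 4 of 6 animals. The cause was not tested for any change below. Between classes, 2 called members became 1 with 2 groups of 18 libraries and with the animal as replicate block (pairing by animal). They became 0 with counts summed per animal and class in pairs, with the letter as covariate or letter B alone, with library totals, limma or no low-count filter, and without the perirenal or (chosen after seeing the data) the sternal depot. The tests of animals and of letters and the single-library fits on the same rows were also added after seeing the data. Calls over all rows moved too. Between classes they were 110 of 667 in the main fit, 90 with 2 groups and 109 with the block. Summed counts gave 46, the letter as covariate 71 and letter B alone 39 of 727. Library totals gave 138, limma 114 and no filter 120 of 1682. Without perirenal fat 94 of 643 rows were called, and without sternal fat 30 of 657. Over all depots 1 called member became 2 with RLE factors, DESeq2 or a filter of 10 CPM, and 0 with letter B alone. Calls over all rows there went from 93 of 667 to 91, 172, 85 of 294 and 43 of 727 in the same order. Within subcutaneous depots 0 became 2 with DESeq2 or that filter. Of the depot contrasts, 2 calls became 4 with RLE factors, DESeq2 or that filter, and 1 with library totals, limma, letter B alone or no filter. In sternal fat, calls over all rows went from 62 of 667 to 72 with RLE factors, 97 with DESeq2 and 69 of 294 with that filter. They were 64 with library totals, 56 with limma, 25 of 727 with letter B alone and 30 of 1682 with no filter. The 3 pair calls became 8 with RLE factors, 11 with that filter, 12 with DESeq2 and 0 with letter B alone. Calls over all rows by setting are not given here for the pairs or within the subcutaneous depots. The block changed no other count of members. Without single animals or libraries the counts of members ran from 0 to 2 (classes), 0 to 2 (all depots), 0 to 1 (subcutaneous), 1 to 5 (depots) and, without animals, 0 to 4 (pairs). Over all rows, calls between classes ran from 56 (without animal 4) to 101 (without animal 5). Calls over all depots ran from 40 (without animal 4) to 84 (without animal 2).

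The class difference of the family share, 0.592 points, was 3.85 with TMM-scaled sizes and ran from −0.0584 to 0.970 without single animals. Class differences near 0 changed sign. Under library totals they were −0.206 (let-7f), −0.0768 (let-7g), −0.183 (let-7d), −0.0739 (let-7b), −0.139 (let-7e), −0.0698 (miR-98) and −0.193 (let-7a-3p). With limma they were −0.177, −0.0842, −0.187, −0.0600, −0.269, −0.0634 and −0.153 in the same order. let-7a-5p was 0.0232 with RLE factors and DESeq2, 0.0060 with the 10 CPM filter, 0.236 with the letter as covariate, 0.206 with letter B alone, 0.0733 without back and 0.00505 without pericardial fat. let-7d was −0.0419 with letter B alone. Without pericardial fat let-7d was −0.0859, let-7e −0.0379 and let-7f −0.0841. Without sternal fat let-7e was −0.0924, let-7f −0.157 and miR-98 −0.0475, and without inguinal fat let-7a-3p was −0.0844. Without single animals or libraries let-7a-5p ran from −0.162 to 0.0787, let-7f from −0.05 to 0.0872, let-7d from −0.0470 to 0.102, let-7e from −0.00181 to 0.187 and let-7a-3p from −0.0283 to 0.126. Library totals moved the median of all rows from −0.09 to −0.29 between classes and the share of calls that were higher from 43.6% to 18.8%. Depth limits let-7a-3p most, whose counting error reached 12.0%.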
